A study of Mus musculus with 4 samples.

Results

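Transcription factors that respond to activation and factors that mark blood progenitors were compared between eosinophils of the pleural cavity and eosinophils of the bone marrow. The genes were chosen by symbol: every listed gene of the Klf, Egr, Fos, Jun, Maf, Batf, Ets, Etv, Runx, Myb, Myc, Mxd, Hox, Meis, Bhlhe, Tcf, Nfat, Ikzf, Gfi1, Foxo, Foxp, Rara, Rarg, Rxr and Ppar names, with Nupr1. Of the 5807 genes in the deposited table, 56 had such a symbol. The same pattern matched 167 protein-coding genes in the annotation, and the others, among them Fos, Jund, Fosl2, Atf3, Egr3, Nr4a1, Runx1 and Klf4, are not among the genes analysed here. The match is by name, so a few genes came with it that do not bind DNA as the others do: Maf1 is a repressor of RNA polymerase III, and Ppargc1a is a coactivator.

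The Fos, Jun, Batf and Maf proteins are basic leucine zipper (bZIP) factors that bind DNA as dimers, and pairs of Fos and Jun proteins form AP-1. Fos, Jun and Egr genes are immediate early genes, which are transcribed within minutes of a stimulus without new protein synthesis. The Krüppel-like factors (Klf) are zinc finger proteins that bind GC-rich promoters. Myb, Myc and the Hoxa and Meis factors maintain the growth of immature blood cells, and most of them are shut down as granulocytes mature. Eosinophils arise from such progenitors in the marrow, under GATA1, C/EBP and PU.1, and move to tissues when mature.

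The wild-type (WT) mice were 6 to 8 weeks old and had received Lewis lung carcinoma (LLC) cells into the pleural cavity, a model of malignant pleural effusion (MPE). The study describes the sequenced cells as taken at day 2, the pleural ones from lavage fluid, and the effusion as forming at later stages. Pleural eosinophils were enriched on CD45 and sorted as CD11c-, Gr1-/low, CD11b+, F4/80+ and SiglecF+ cells of high side scatter. Marrow eosinophils were enriched on F4/80 and sorted as CD45+ SiglecF+ cells of high side scatter, a gate that did not use Gr1 or CD11c. Tissue and cell isolation therefore cannot be told apart in any value below, those of the immediate early genes included. The labels and the methods give LLC mice as the source of both tissues, whereas the study's text elsewhere calls the marrow cells naive, so tumour exposure of the marrow cells is uncertain. Each tissue had 2 libraries.

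The table gives 1 mean of estimated reads per tissue over its 2 libraries and nothing for the libraries themselves, which left every value below without an SD, an n or a test. The means of all listed genes summed to 15947438 reads in the pleural cavity and 11762543 in the bone marrow. Ratios are log2 of pleural cavity over bone marrow after each mean was divided by its tissue's sum of listed reads, with 0.5 reads added to both means, and a gene was counted as higher or lower past 2-fold. The table lists only genes that the study had called different between the tissues, so each gene here had to differ, and the counts describe a selected list. No listed gene had a ratio between -0.47 and 0.18. Other scalings moved every ratio by between -0.44 and 0.44, and a ratio nearer to 0 than that has no settled direction.

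Markers of other cells moved with the tissue. Beside each count below, 16.0% of all listed genes were over 2-fold higher in the pleural cavity and 50.5% were over 2-fold lower. All 17 listed neutrophil and granulocyte precursor markers were lower in the pleural cavity, with ratios from -9.86 to -3.56 and a median of -9.35, and together they held 11.4% of the listed reads in the bone marrow and 0.0372% in the pleural cavity. Of these Ngp, a granule protein gene of immature neutrophils, had 546.5 mean reads in the pleural cavity and 263228.5 in the bone marrow. The 6 listed basophil and mast cell markers, of 8, were also lower, with a median ratio of -7.83 and 968 summed reads per 1000000 listed reads in the bone marrow and 10.9 in the pleural cavity. Of the 16 listed blood progenitor markers, of 18, 14 were lower, and the summed level of the 16 was 2238 reads per 1000000 listed reads in the pleural cavity and 2691 in the bone marrow. Without Spi1 and Lyl1, which carried most of these reads, the other 14 summed to 74.4 and 1163. Eosinophil genes were present in both tissues, and of the 17 listed, of 20, 5 were higher, 7 were lower and 5 lay within 2-fold, with a median of 0.31. Ccr3, the eotaxin receptor, had a ratio of 1.54, Siglecf 1.15 and Gata1 1.11, whereas the granule protein genes Prg2, Epx and Ear1 had ratios of -8.99, -9.11 and -8.94. The reads of Ear1 were not whole numbers, so part of them was shared out by the counting. In such bulk samples fewer cells of a type and less RNA per cell cannot be told apart, and the part of these other cells in the results below was not tested.

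The promoters of 4 immediate early genes are shown first because these genes separated by tissue: Egr2 was higher in the pleural cavity, Fosb and Jun were higher in the bone marrow, and Junb was high in both. Each is the 250 bases upstream of a RefSeq transcription start on GRCm38.p6, 5′ to 3′ on the strand of the gene. Capitals mark a GC box (GGGCGG, read on either strand), the CArG box bound by serum response factor, or the AP-1-like element TGACATCA. The Egr2 window is chr10:67537316-67537565, plus strand, with its CArG box 72 to 63 bases before the start. It was chosen as the first listed of 5 start sites whose window held a CArG box, as 4 of the 5 did. Fosb, Jun and Junb had 1 start site each, so no such choice was made for them. The Fosb window is chr7:19310046-19310295, minus strand, with 3 GC boxes, of which the pair farthest upstream overlap. For Jun the window is chr4:95052223-95052472, minus strand, with a GC box and, 45 to 38 bases before the start, the AP-1-like element. For Junb it is chr8:84978749-84978998, minus strand, and it held none of the letters searched.
Egr2: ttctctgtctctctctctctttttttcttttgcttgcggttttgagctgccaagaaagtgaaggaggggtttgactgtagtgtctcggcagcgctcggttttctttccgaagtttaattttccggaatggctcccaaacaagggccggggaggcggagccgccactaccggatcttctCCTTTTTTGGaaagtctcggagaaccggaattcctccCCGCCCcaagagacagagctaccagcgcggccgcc
Fosb: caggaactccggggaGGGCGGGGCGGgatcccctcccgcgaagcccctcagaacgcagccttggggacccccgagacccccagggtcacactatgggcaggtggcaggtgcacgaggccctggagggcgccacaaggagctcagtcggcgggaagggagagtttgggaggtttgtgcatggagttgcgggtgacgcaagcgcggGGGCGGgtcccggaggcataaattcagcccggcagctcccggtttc
Jun: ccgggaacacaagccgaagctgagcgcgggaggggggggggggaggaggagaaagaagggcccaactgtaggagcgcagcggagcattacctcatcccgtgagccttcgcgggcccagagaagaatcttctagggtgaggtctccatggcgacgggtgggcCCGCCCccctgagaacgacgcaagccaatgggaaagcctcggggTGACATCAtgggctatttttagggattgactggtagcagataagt
Junb: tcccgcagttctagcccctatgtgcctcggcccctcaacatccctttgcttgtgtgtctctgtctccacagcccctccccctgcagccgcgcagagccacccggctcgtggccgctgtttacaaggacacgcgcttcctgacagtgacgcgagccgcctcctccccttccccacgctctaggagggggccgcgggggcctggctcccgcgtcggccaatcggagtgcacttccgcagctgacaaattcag

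In the pleural cavity 17 of the 56 genes (30.4%) were over 2-fold higher, against 16.0% of all listed genes, and 23 (41.1%) were over 2-fold lower, against 50.5%. The remaining 16 lay within 2-fold, 12 above 0 and 4 below it. The median ratio was 0.26, against -1.02 over all listed genes, of which 42.5% had a ratio above 0. The balance of higher and lower genes moved with the scaling. Without any scaling the counts were 24 and 22, against 30.5% and 43.2% of all listed genes. With the median ratio of the 1524 genes over 1000 reads in both tissues set to 1 they were 12 and 27, against 9.04% and 57.3%. With at least 10 mean reads asked of both tissues, 17 were higher and 14 lower among the 47 genes left, against 19.3% and 37.3% of all listed genes that passed. The genes that were higher had a median of 4120 mean pleural reads, against 1309.5 over all listed genes that were higher. Their mean marrow reads were as few as 21, in Maf. The lower genes had a median of 282.5 mean marrow reads, against 178 over all listed genes that were lower, and 8 of them had under 100.

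**Figure D1:**
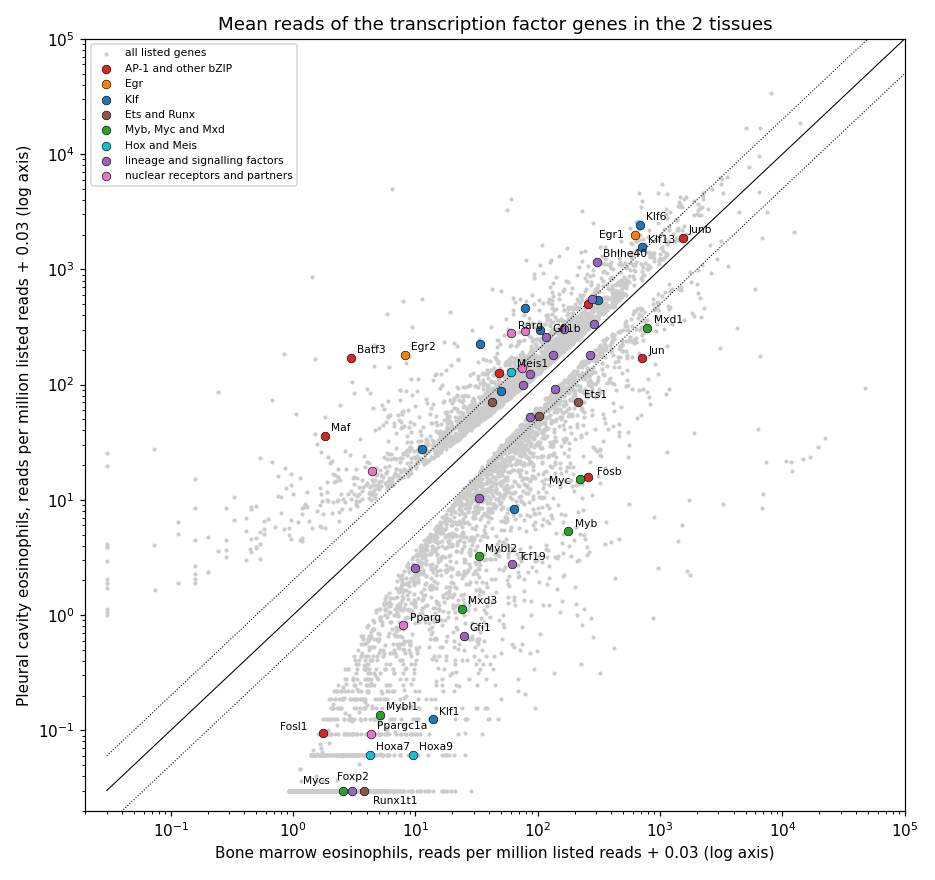
Mean reads of each of the 56 genes in bone marrow (x axis) and pleural cavity (y axis) eosinophils, in reads per 1000000 listed reads with 0.03 added, both axes log, coloured by family, with the other listed genes in grey. The solid line marks equal levels and the dotted lines 2-fold. Klf6, Egr1, Klf13 and Junb sit at the upper right, Batf3, Egr2 and Maf at the left, and Myb, Myc and Fosb far below the line.

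**Figure D2:**
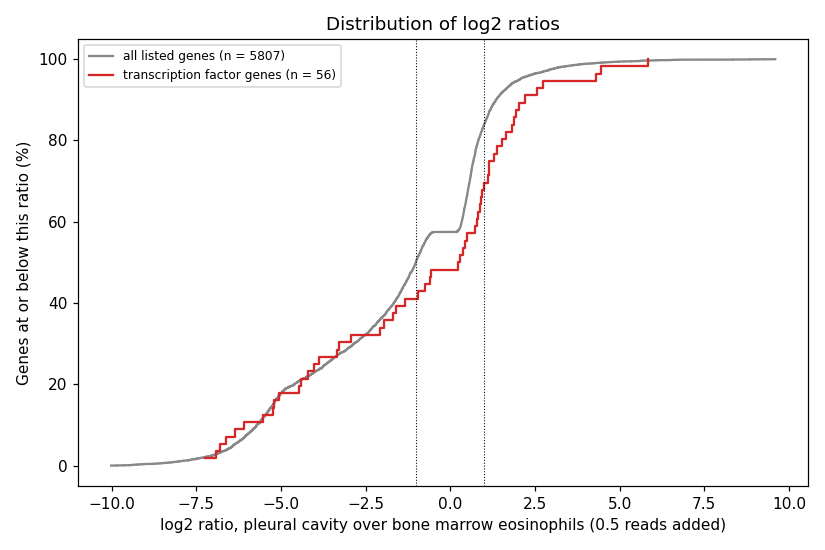
Cumulative share (y axis, percent) of genes at or below each log2 ratio of pleural cavity over bone marrow (x axis) for the 56 transcription factor genes in red and all 5807 listed genes in grey. Dotted lines mark 2-fold, and the red line lies to the right of the grey one at its middle, with medians of 0.26 and -1.02.

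Of the 8 genes with Fos, Jun, Maf or Batf names, 3 were higher in the pleural cavity, 3 were lower and 2 lay within 2-fold. Over all listed genes 16.0% were higher and 50.5% lower. Batf3 and Batf encode short bZIP factors that pair with Jun proteins and lack an activation domain. Batf3, at chr1:191097847-191108945 (GRCm38, plus strand), had 2716.5 mean reads in the pleural cavity and 34.5 in the bone marrow, a ratio of 5.84. That was the highest ratio of the 56 genes. Batf had 1996.5 and 566 mean reads and a ratio of 1.38, or 0.93 with the median of highly expressed genes set to 1. Maf, a large Maf factor with its own activation domain, had 571 and 21 mean reads and a ratio of 4.29. Its exons overlap an antisense gene, and strand is not stated for these libraries.

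The classical AP-1 genes split. Junb had 29876.5 mean reads in the pleural cavity and 17984.5 in the bone marrow, a ratio of 0.29 that fell to -0.15 with the median of highly expressed genes set to 1. Per length it was at 1036 and 845 reads per kilobase per 1000000 listed reads, above 98.8% of the listed genes with a known length in the pleural cavity and 98.7% in the bone marrow. Jun, its close relative and a stronger activator, had 2685.5 mean reads in the pleural cavity against 8386.5 in the bone marrow, a ratio of -2.08. Fosb, a Fos partner of both, had 253 against 3049, a ratio of -4.03. Jun and Fosb were thus lower in the pleural cavity while Junb was abundant in both tissues, and the 2 Batf genes were higher. Fosl1 (FRA1) rested on 2 reads summed over the pleural libraries and 41 over the marrow libraries, a ratio of -4.21 with a 95% exact interval from -7.89 to -2.85 that covers counting error only. Maf1 had 8002.5 and 3057.5 mean reads and a ratio of 0.95.

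Both listed Egr genes, zinc finger factors that serum response factor induces through CArG boxes, were higher in the pleural cavity. Egr1 had 31472 mean reads in the pleural cavity and 7375 in the bone marrow, a ratio of 1.65. Egr2, which regulates macrophage and lymphocyte activation, had 2875.5 and 97 mean reads and a ratio of 4.44. Per length Egr2 stood at 60.8 reads per kilobase per 1000000 listed reads in the pleural cavity and 2.78 in the bone marrow, and Egr1 at 440 and 140.

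Other immediate early and stress response genes, a list of 41 outside the transcription factors, went both ways. Of the 21 that were listed, 7 were over 2-fold higher in the pleural cavity, 6 were lower and 8 lay within 2-fold. Their median ratio was 0.50. Over all listed genes 16.0% were higher, 50.5% were lower and the median was -1.02. Dusp1, a phosphatase that switches off MAP kinases, had 269575 mean reads in the pleural cavity and 58829 in the bone marrow, a ratio of 1.76. Ier2 and Btg2, the next most abundant, had ratios of 0.67 and 0.47. Of the MAP kinase cascade and its feedback inhibitors 10 of 29 genes were listed, 3 higher, 3 lower and 4 within 2-fold, with a median of 0.53. Among its abundant genes Rps6ka1 had a ratio of 0.44 and Mapk14 had 1.04. Of 25 CREB, ATF and C/EBP genes 10 were listed, 2 higher, 2 lower and 6 within, with a median of 0.59. Nfe2, the most abundant, had a ratio of 0.66, Nfil3, a bZIP repressor, 1.40 and Crtc1, a CREB coactivator, 1.23.

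Among the Klf genes 6 of 10 were over 2-fold higher in the pleural cavity, against 16.0% of all listed genes, 2 were lower and 2 lay within 2-fold, and the 8 with a ratio above 0 kept that sign under each scaling tried. With the median of highly expressed genes set to 1, 4 were over 2-fold higher, against 9.04% of all listed genes. Klf6, an early response gene, had 38832 mean reads in the pleural cavity and 8115.5 in the bone marrow, a ratio of 1.82. Klf13 had 24677 and 8330.5 mean reads and a ratio of 1.13. Klf7 had 8702.5 and 3650.5, a ratio of 0.81. Together the 10 genes held 5640 reads per 1000000 listed reads in the pleural cavity and 2063 in the bone marrow.

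The largest ratio in the Klf family was that of Klf3, a repressor that recruits CtBP, with 3567.3 against 396.4 mean reads and a ratio of 2.73. Klf10, a gene induced by TGF-β, followed with 7413.5 against 924.5 and 2.56. Klf12, another CtBP-binding repressor, went the other way, with 133.1 mean reads in the pleural cavity against 745.4 in the bone marrow and a ratio of -2.92. The reads of Klf3 and Klf12 were not whole numbers, so part of them was shared out by the counting. Klf1, the erythroid member that drives globin genes, had 3 reads summed over the pleural libraries and 326 over the marrow libraries, a ratio of -6.79 with a 95% exact interval from -9.49 to -5.64. Klf2, which keeps leukocytes quiescent, Klf11 and Klf16 had ratios of 1.53, 0.80 and 1.28.

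Every one of the 7 listed Myb, Myc and Mxd genes was over 2-fold lower in the pleural cavity, against 50.5% of all listed genes. Myb, the progenitor factor that sustains immature myeloid growth, had 84.5 mean reads in the pleural cavity and 2095.5 in the bone marrow, a ratio of -5.06. Myc had 240.5 against 2591, a ratio of -3.87. Mybl2, a cell cycle factor of the same family as Myb, had 51 against 386 and -3.35. Mybl1 rested on 3 summed pleural reads against 120, a ratio of -5.22 with an interval from -8.06 to -4.18. Its sums were rounded, because part of its reads was shared out by the counting.

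Mxd1 and Mxd3 encode partners of MAX that oppose MYC. Mxd1, which is induced as myeloid cells mature, had 4948.5 mean reads in the pleural cavity and 9286.5 in the bone marrow, a ratio of -1.35 that came to -0.91, within 2-fold, without scaling. Mxd3, which is expressed in S phase, had 17.5 against 282.5 and -4.41. Within each tissue the ratio of Mxd1 to Myc per kilobase, which does not depend on the scaling between tissues, was 10.3 in the pleural cavity and 1.80 in the bone marrow. Mycs, an intronless copy of Myc on chromosome X, had 0 mean reads against 29.5 and was at least 13.3-fold lower against a floor of 3 reads. Mycs may share reads with Myc, although the means of both genes were ones that 2 whole read counts can give. Of 7 other MAX network genes 3 were listed: Mnt had a ratio of 0.72, Mlx -0.63, and Mlxipl had 312 mean reads in the pleural cavity and 0 in the bone marrow, at least 76.7-fold higher, so that 1 was higher, 0 were lower and the median was 0.72.

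The 3 Hox and Meis genes did not move together. Hoxa9 and Hoxa7, homeobox genes of stem cells and early progenitors, were close to undetected in the pleural cavity. Hoxa9 had 1 read summed over the pleural libraries and 224 over the marrow libraries. Its ratio was -7.25, or -8.25 without the added reads, with an interval from -13.56 to -5.75. Hoxa7 had 1 against 99, a ratio of -6.08, or -7.07 without the added reads, with an interval from -12.39 to -4.56. Meis1, the cofactor with which HOXA9 binds DNA in progenitors, was instead higher in the pleural cavity, with 2065.5 against 706 mean reads and a ratio of 1.11. That ratio fell under 2-fold with the median of highly expressed genes set to 1.

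Progenitor markers outside these families had a median ratio of -3.92, or -3.79 with genes at 0 in the pleural cavity set to their bound. The most abundant of them were Spi1, which encodes PU.1 and is also used by mature eosinophils, with a ratio of 0.56, Lyl1 with 0.31, and the proliferation gene Top2a with -6.41. The stem cell factor receptor Kit had a ratio of -3.29 and Cd34 -3.58, and both were chosen as examples after their values were seen.

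Of the 4 Ets and Runx genes 2 were lower in the pleural cavity, against 50.5% of all listed genes, and 2 lay within 2-fold. Ets1, best known from lymphocytes, had 1115.5 mean reads against 2522 and a ratio of -1.62. Its paralog Ets2, a target of MAP kinases, had 1124.5 against 497 and a ratio of 0.74. Per kilobase the ratio of Ets2 to Ets1 was 1.32 in the pleural cavity and 0.257 in the bone marrow. The pleural reads of the paralogs were nearly equal, so their order there depends on the transcript lengths used. Etv6, a repressor needed by marrow stem cells, had 849 against 1214.5 and -0.96, or -1.40 with the median of highly expressed genes set to 1. Runx1t1, a corepressor, had 0 mean reads in the pleural cavity against 44 and was at least 19.9-fold lower.

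**Figure D3:**
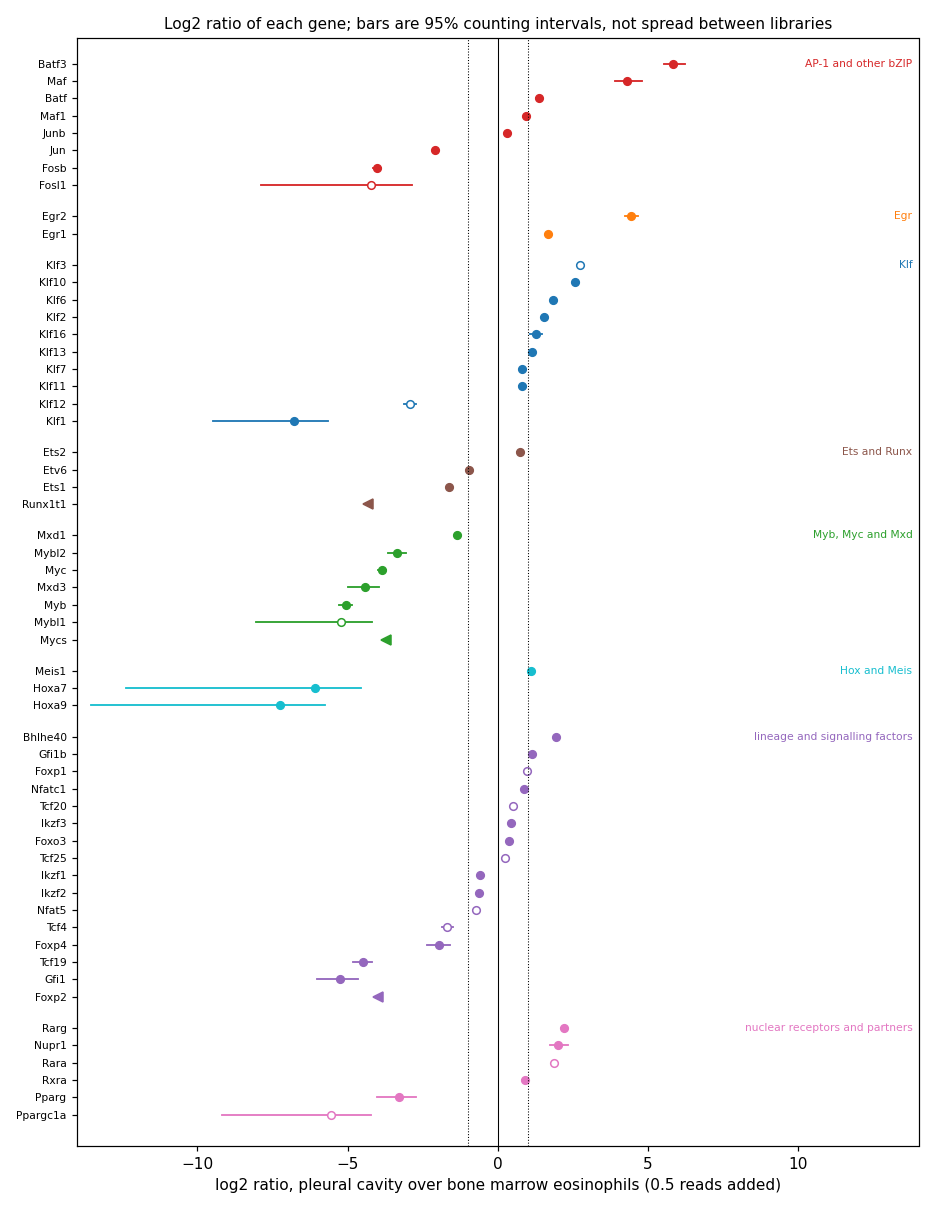
Log2 ratio of pleural cavity over bone marrow (x axis) for each of the 56 genes, grouped and coloured by family, with horizontal bars for the 95% exact counting interval of the reads, which leaves out the spread between libraries. Open circles mark genes with reads that are not whole numbers, left-pointing triangles mark the least fall of the 3 genes at 0 pleural reads, and dotted lines mark 2-fold. The Myb, Myc and Mxd genes all lie left of the line at -1, whereas 6 of the 10 Klf genes lie right of the line at 1.

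Among 16 lineage and signalling factors 2 were over 2-fold higher, 5 were lower and 9 lay within 2-fold. The shares over all listed genes were 16.0% higher and 50.5% lower. Bhlhe40, a basic helix-loop-helix repressor induced by activation and hypoxia, had 18577.5 mean reads in the pleural cavity and 3558 in the bone marrow, a ratio of 1.95. The zinc finger repressors Gfi1b and Gfi1 went opposite ways. Gfi1b, which acts in erythroid and megakaryocytic lineages, had 4120 against 1378.5 mean reads and a ratio of 1.14, a ratio that fell under 2-fold with the median of highly expressed genes set to 1. Gfi1, which is required for neutrophil development, had 10 against 292 and a ratio of -5.24. Per kilobase Gfi1b was 647 times as high as Gfi1 in the pleural cavity and 7.41 times in the bone marrow. Gfi1 moved the same way as the neutrophil markers, and whether they share a source was not tested.

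Foxp1, a forkhead repressor that keeps T cells quiescent, had 8795.7 against 3286.1 mean reads and a ratio of 0.98, and Tcf25 had 5362 against 3371.9 and 0.23. Nfatc1, an effector of calcium signalling, had a ratio of 0.87. Tcf19, a gene of proliferating cells, had 43.5 against 725 mean reads and a ratio of -4.48. Foxp4 had 40.5 against 117.5 and -1.96, and Foxp2 had 0 against 35.5 and was at least 16.0-fold lower. The 3 Ikaros family genes, zinc finger regulators of lymphoid and myeloid fate, lay within 2-fold: Ikzf1 had a ratio of -0.58, Ikzf2 -0.61 and Ikzf3 0.44. The remaining genes of this group, Tcf20, Foxo3, Nfat5 and Tcf4, had ratios between -1.68 and 0.51. With the median of highly expressed genes set to 1, Ikzf3, Foxo3 and Tcf25 turned below 0, and Ikzf1 at -1.02, Ikzf2 at -1.06 and Nfat5 at -1.18 passed 2-fold.

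Of the 6 nuclear receptors and their partners 3 were higher in the pleural cavity, 2 were lower and 1 lay within 2-fold. The shares over all listed genes were 16.0% higher and 50.5% lower. The retinoic acid receptor genes Rarg and Rara had 4458 and 4614.5 mean reads in the pleural cavity and 717.5 and 925 in the bone marrow. Their ratios were 2.20 and 1.88. Rxra, which encodes the partner of both receptors on DNA, had 2229.5 against 881.5 mean reads and a ratio of 0.90. These 3 retinoid receptor genes had ratios above 0 under each scaling tried, that of Rxra within 2-fold, and the other receptor genes of the pathway are not among those analysed here.

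Pparg, a receptor for fatty acid ligands that marks resident macrophages of the lung, had 12.5 mean reads in the pleural cavity against 93.5 and a ratio of -3.29. Its coactivator gene Ppargc1a rested on 2 summed reads against 102, a ratio of -5.54 with an interval from -9.18 to -4.22. The reads of Ppargc1a were also partly shared out by the counting, and the sums were rounded. Nupr1, a small stress-induced chromatin protein, had 284.5 against 51.5 mean reads and a ratio of 2.02. Of the macrophage and monocyte markers 8 of 13 were listed, 2 higher, 4 lower and 2 within 2-fold, with a median of -0.98. Over all listed genes 16.0% were higher and 50.5% lower. The macrophage and monocyte markers summed to 5262 reads per 1000000 listed reads in the pleural cavity and 10360 in the bone marrow. Lyz2 carried most of this, with 3160 and 7441, and Ly6c2 held 38.2 and 1879, so the direction of the sum follows these genes. Csf1r held 1293 and 338. Lyz2 and Ly6c2 had ratios of -1.24 and -5.62, whereas Csf1r and C1qb had 1.94 and 1.77. Lymphoid and erythroid markers, Klf1 among them, had 7 of 18 genes listed, with 1 higher, 6 lower and a median of -2.87, or -2.44 with genes at 0 set to their bound. Tumour and mesothelial markers had 3 of 9 listed, with 1 higher, Krt18 at 1.45, 2 lower and a median of -3.08. The summed level of the lymphoid and erythroid markers was 44.4 reads per 1000000 listed reads in the pleural cavity and 1010 in the bone marrow. That of the tumour and mesothelial markers was 121 and 55.7, of which Krt18 alone held 120 and 44.0.

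The 56 genes together held 15425 reads per 1000000 listed reads in the pleural cavity and 9508 in the bone marrow. A few genes carried much of this. In the pleural cavity Klf6, Egr1, Junb, Klf13 and Bhlhe40 made up 58.3% of it, led by Klf6 with 15.8% and Egr1 with 12.8%. In the bone marrow Junb, Mxd1, Jun, Klf13 and Klf6 made up 46.6%, led by Junb with 16.1%. Junb, Klf6 and Klf13 were among the 5 leading genes in both tissues.

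Ranks within a tissue do not depend on the scaling between tissues. They do depend on the other listed genes, of which 50.5% were over 2-fold lower in the pleural cavity, so a rank can rise while a ratio is below 0. Tcf4, with a ratio of -1.68, stood above 29.6% in the bone marrow and 30.3% in the pleural cavity. Per length Batf3 stood above 25.2% of the 5656 listed genes with a length in the bone marrow and above 90.8% in the pleural cavity. Jun went from 94.3% in the bone marrow to 78.4% in the pleural cavity, and Fosb from 83.2% to 40.7%. The ranks of Junb were alike in both tissues.

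Ratios between related genes within a tissue are likewise free of the scaling, and 11 pairs were chosen after their values were seen. Junb was 3.78 times as high as Jun per kilobase in the bone marrow and 19.6 times in the pleural cavity. Against Fosb, Junb was 12.3 times as high in the bone marrow and 247 times in the pleural cavity. Egr1 was 2.04 times as high as Fosb in the bone marrow and 105 times in the pleural cavity. Batf was 19.1 times as high as Batf3 in the bone marrow and 0.854 times in the pleural cavity, so the order of the 2 Batf genes was reversed. Klf3 and Klf12 also changed order, from 0.600 to 30.2. Rara and Rarg stayed close to each other, at 1.13 in the bone marrow and 0.903 in the pleural cavity.

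**Figure D4:**
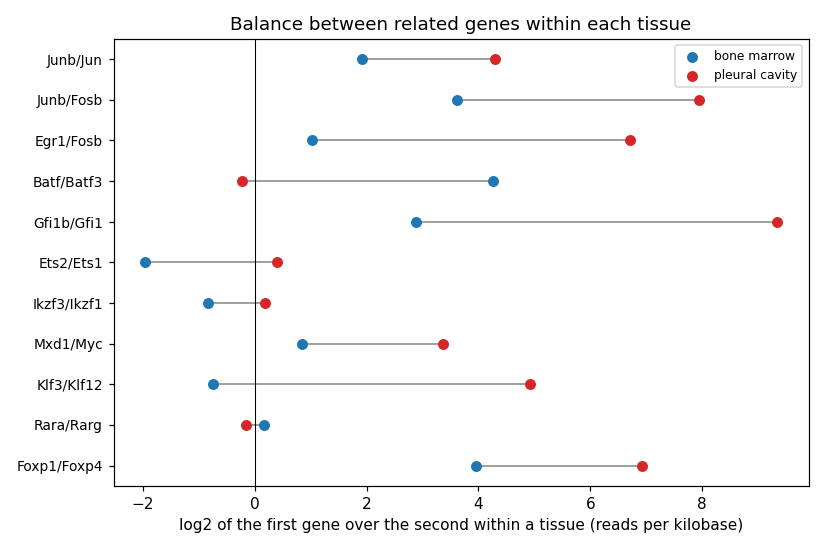
Log2 of the first gene of each pair over the second, in reads per kilobase within a tissue (x axis), for 11 pairs of related genes, with bone marrow in blue, pleural cavity in red and a grey line joining them. Points right of 0 mean that the first gene was higher. Batf/Batf3 moves from right to left of 0, Ets2/Ets1 and Klf3/Klf12 move from left to right, and Rara/Rarg stays near 0.

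RefSeq promoters were matched for 40 of the 56 genes, with 55 windows of 250 bases upstream of a start, and 32851 windows of all genes served for comparison. The letters were read on both strands, and a match is a description of the sequence alone. Shares over all genes are of windows, whereas a gene was counted if any of its windows matched. Genes with several windows, such as Egr2, thus had more chances, and the gene counts are not comparable with those shares. The GC box GGGCGG was present in 32.7% of all windows and in 36 of these 55, which belong to 31 of the 40 genes, 11 of 12 that were higher in the pleural cavity and 10 of 16 that were lower. The E-box CACGTG, the site of MYC, MAX and BHLHE40, was present in 6.02% of all windows and in 6 of these 55, which belong to 6 genes: Batf3, Egr2, Klf6, Nupr1 and Rara, which were higher, and Klf11, within 2-fold. It was in 0 of the 16 lower genes. The CArG box was present in 1.47% of all windows and in 4 of the 5 windows of Egr2. The cyclic AMP element TGACGTCA and the AP-1 site TGANTCA, present in 1.55% and 6.75% of all windows, were in none of these 55. TGACATCA, searched after the Jun promoter had been read, was in 2.93% of all windows and in those of Jun, Klf6, Ppargc1a and Tcf20. The median GC content was 62.9% in the higher genes, 62.4% in the lower genes and 67.3% in those within 2-fold, against 52.4% over all windows.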

How the data were processed

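Eosinophils sorted from the pleural cavity and the bone marrow of LLC-bearing mice were sequenced as 2 libraries per tissue from transposon-based cDNA libraries, and samples were grouped by the labels. The authors filtered reads with SOAPnuke, aligned them with HISAT2 2.1.0 (GRCm38), used Bowtie2 2.2.5 to map reads to genes and obtained estimated counts from RSEM 1.2.8. StringTie 1.0.4 and DESeq are also named in the submitters' processing notes. The deposited values are the authors' mean expected counts per tissue, not scaled for depth. The table's log2 fold changes, p-values and q-values hold the authors' own comparison and were not used, and 0 per-sample columns were left out. The depth per library is unknown.

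Means were divided by the sum of listed reads, and 0.5 reads were added for log2 ratios. Genes past 2-fold were counted, with no test. A mean of 0 was set against a floor of 3 reads. The 95% exact counting intervals used reads summed over both libraries and rounded to whole numbers, without the added 0.5 reads. PCR copies are not independent, so the intervals cover counting error only. Means that 2 whole read counts cannot give, a sign of reads shared out between genes, occurred in 11 of the 56 genes and 25.8% of all listed genes. Exons of 15 of the 56 genes overlap an antisense gene, Jun, Junb, Klf3, Klf7, Bhlhe40, Myb, Gfi1 and Meis1 among them, and their reads may be mixed where counting ignored strand. Lengths are those of the longest GENCODE transcript on GRCm38, matched for 5656 genes, and promoters are RefSeq's on GRCm38.p6. The ratio calculation was checked on simulated counts with changes drawn in both directions and a known depth factor. That check did not test the choice of scaling for these data. Calculations ran in Python 3.11.15 with numpy 2.4.6, pandas 2.3.3, matplotlib 3.10.9 and scipy 1.17.1.

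The genes, lists and thresholds were chosen with earlier results of these data known. Named were all genes of families with up to 6 listed members and all bZIP genes, otherwise the 3 most abundant and the 3 with the largest ratios each way among those with at least 50 reads in a tissue, and in other lists the 3 most abundant genes, some of which are not reported here. Genes named beyond this rule were chosen after their values were seen. Other scalings, an added 5 reads, read minimums, a 4-fold limit and the removal of genes with fractional reads or without DNA binding were tried as alternatives.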

Additional observations from a re-analysis of the deposited data

How the results depend on the processing

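The median ratio of the 56 genes, 0.26 as reported, was 0.70 with unscaled reads, 0.0608 with totals that left out the 50 genes with the most reads, and -0.18 with the median ratio of the 1524 genes over 1000 reads in both tissues set to 1. It stayed above the median of all listed genes under each of these, which was -0.58, -1.22 and -1.46. The change follows from the scaling, which shifts every ratio alike. Over the 47 genes that reached 10 mean reads in each tissue the median was 0.74, against 0.35 over all, and 14 genes were lower. With at least 50 mean reads in a tissue the median was 0.44 over 51 genes, against 0.22 over all, and without genes with fractional reads 0.38 over 45, against -0.93. At a 4-fold limit 7 genes were higher, against 5.27% of all listed genes, and 19 were lower, against 36.6%. Of all listed genes 30.5% were over 2-fold higher with unscaled reads and 9.04% with the median of highly expressed genes set to 1. The other counts stayed within 1.5 times those reported, and adding 5 reads left them at 17 and 23. Of the 56 genes 4 changed sign, Junb, Ikzf3, Foxo3 and Tcf25, none of them past 2-fold. No paired analysis was possible because the table holds a mean per tissue and no value per library, and for the same reason no replicate could be left out. Depth limits the 9 genes with at most 3 mean pleural reads, whose ratios have wide intervals or are bounds.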
